A study of Homo sapiens with 7 samples.

Results

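The regions described here are stretches of the HepG2 genome where PPARα was called bound when either estrogen receptor was expressed with it and where neither library of PPARα alone had a peak. Peaks of the 6 deposited lists on chromosomes 1 to 22 and X were merged wherever they overlapped by 1 bp or more. A merged region was kept when it held a peak in at least 1 PPARα+ERα library and at least 1 PPARα+ERβ library, and no peak in either PPARα library. Of 92292 regions, 1688 met this rule (1.83%), and 95 of them had a peak in all 4 co-transfected libraries (0.103% of all regions). The regions were chosen by the peak calls themselves, so the presence of these peaks and the absence of PPARα peaks, on which the regions were selected, is a description and was not tested.

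The series mapped PPARα by chromatin immunoprecipitation and sequencing with an antibody to PPARα in HepG2, a cell line from a human hepatocellular carcinoma. All 3 groups received a vector for tagged PPARα. Agonists were added from 48 h after transfection, and every group had 2 h of WY14643, which activates PPARα, at 10 µM. The PPARα+ERα cells also received a pCMV vector for ERα and were exposed first to the ERα-selective agonist PPT at 10 nM for 45 min. The PPARα+ERβ cells also received a vector for Flag-tagged ERβ and were exposed first to the ERβ-selective agonist DPN at 10 nM for 45 min. Each group has 2 libraries, and nothing in the labels says that they came from separate cultures, so the spread between them may be technical. All receptors came from transient transfection, there is no group with an estrogen receptor and without its agonist, and the vector and its agonist therefore cannot be told apart. The no-antibody sample was not analysed here.

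PPARα is a nuclear receptor activated by fatty acids and fibrate-like drugs. With its partner RXR it binds direct repeats of the receptor core AGGTCA spaced by a single base, and in liver it is known for driving fatty acid oxidation and ketone body genes. ERα and ERβ are steroid receptors that bind inverted repeats of the same core as dimers, share most of their DNA-binding domain, and recruit coactivators that PPARα also uses.

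Promoters bear on the result because the highest ranked regions in all 4 co-transfected libraries, those of XPNPEP3, EIF2S3, GADD45GIP1 and FST, sat within 1 kb of gene starts. Of all 1688 regions, 16 touched the 250 bases before a start. The promoters of 5 genes are shown. Each line gives the 250 bases before an annotated start, 5′ to 3′ on the strand of the gene, from RefSeq on GRCh38.p14, in lower case with capitals for a PPAR element, a cyclic AMP response element (CRE, TGACGTCA) or a GC box (GGGCGG), on either strand. The windows are chr22:40856898-40857147 on the plus strand for XPNPEP3, chrX:24054706-24054955 on the plus strand for EIF2S3, chr19:12957224-12957473 on the minus strand for GADD45GIP1, chr2:240025343-240025592 on the minus strand for NDUFA10 and chrX:101932028-101932277 on the minus strand for ZMAT1. The windows of EIF2S3 and GADD45GIP1 lie wholly under regions with a peak in all 4 co-transfected libraries. Such regions cover 181 of the 250 bases of XPNPEP3 and 141 of those of NDUFA10. Both marked motifs of NDUFA10 lie outside its region. ZMAT1 was chosen, after its sequence was seen, as the only one with a PPAR element.
XPNPEP3: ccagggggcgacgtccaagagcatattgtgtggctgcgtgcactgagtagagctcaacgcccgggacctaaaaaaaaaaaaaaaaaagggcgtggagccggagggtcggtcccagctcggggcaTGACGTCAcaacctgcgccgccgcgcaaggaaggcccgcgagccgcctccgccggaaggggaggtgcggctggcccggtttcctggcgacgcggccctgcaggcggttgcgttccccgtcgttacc
EIF2S3: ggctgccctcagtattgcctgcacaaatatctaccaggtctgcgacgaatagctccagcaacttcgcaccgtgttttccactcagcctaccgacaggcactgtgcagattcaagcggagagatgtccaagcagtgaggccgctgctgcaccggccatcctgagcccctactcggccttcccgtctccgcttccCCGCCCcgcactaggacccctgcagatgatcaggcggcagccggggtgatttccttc
GADD45GIP1: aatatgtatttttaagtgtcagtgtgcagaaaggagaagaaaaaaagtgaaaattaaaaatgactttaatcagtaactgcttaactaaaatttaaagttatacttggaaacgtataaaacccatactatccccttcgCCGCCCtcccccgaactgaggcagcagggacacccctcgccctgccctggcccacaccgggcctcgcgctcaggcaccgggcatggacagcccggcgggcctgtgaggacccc
NDUFA10: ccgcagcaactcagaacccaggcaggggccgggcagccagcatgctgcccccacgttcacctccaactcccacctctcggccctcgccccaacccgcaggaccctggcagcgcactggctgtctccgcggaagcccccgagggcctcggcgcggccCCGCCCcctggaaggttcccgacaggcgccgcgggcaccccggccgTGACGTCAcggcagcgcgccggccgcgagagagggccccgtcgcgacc
ZMAT1: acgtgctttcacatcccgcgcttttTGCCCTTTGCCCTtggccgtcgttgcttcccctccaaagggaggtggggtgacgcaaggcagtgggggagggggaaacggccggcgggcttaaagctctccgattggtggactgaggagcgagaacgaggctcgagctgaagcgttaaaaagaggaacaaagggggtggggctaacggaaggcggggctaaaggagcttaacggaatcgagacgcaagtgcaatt

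ZMAT1 encodes a zinc finger protein, and its promoter held a PPAR-type direct repeat at the point of highest signal. The repeat, TGCCCTTTGCCCT as printed, occupied bases 26 to 38 of the line above, at chrX:101932240-101932252, and matched, on the opposite strand, the pattern searched, which is AGGNCA, any base and AGGNCA again. The summits of the 3 libraries with a peak lay 1 to 4 bp from the repeat. Those peaks held 16 fragments in PPARα+ERα library 2, 26 in PPARα+ERβ library 1 and 27 in PPARα+ERβ library 2, and PPARα+ERα library 1 had no peak there. Within their own lists they stood at percentiles 97.8, 99.2 and 98.5 of −log10 q, a scale on which a higher percentile is a stronger peak. Among 34961 promoter windows of RefSeq, 94 hold this pattern (0.269%), and of those 94 only ZMAT1 and MAS1L lay under a region of any of the 6 libraries. The MAS1L region was called in PPARα library 2 alone. A match of letters is a description and not a site.

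In all, 16 regions (0.948%) covered part of 18 promoter windows of 17 genes, against 27195 genes in the table (0.0625%). The bare receptor core AGGTCA, searched on both strands as were all motifs, was in 2 of the 18 windows (11.1%), both of SUPT5H, a transcription elongation factor, and in 12% of all windows. That core lay outside the called region, 325 to 332 bp from its 3 summits. The PPAR element was in 1 of the 18 windows (5.56%) and in 0 of 382 windows under other regions of the co-transfected libraries. The estrogen response element, searched as GGTCA, any 3 bases and TGACC, a pattern that can overlap AGGTCA, was in 0 of the 18 windows and 0.0400% of all. The CRE was in 2 of the 18 (XPNPEP3 and NDUFA10, 11.1%), in 1.65% of all windows and in 2.62% of those 382. In XPNPEP3 it lay inside the region, 36 to 68 bp from the 4 summits, and in NDUFA10 it lay outside, 477 to 528 bp from them. The GC box was in 10 of the 18 windows (55.6%), in 42.7% of all and in 40.1% of those 382. In NDUFA10, ZC3H6, TPD52L2, ABHD16B-AS1 and TRIAP1 the GC boxes lay outside the called region. The windows of SUPT5H overlap each other, as do those of TPD52L2 and ABHD16B-AS1, so some boxes are counted more than once. Of the other motifs, the CCAAT box was in 22.2% of the 18 windows and 32.0% of all. The E-box, ETS site and TATA box were in 11.1%, 11.1% and 16.7% of the 18, and in 6.35%, 8.52% and 10.7% of all. The NRF1, YY1, AP-1, HNF4, FOXA and CTCF patterns were in 0 of the 18. With 18 windows, each motif share rests on few sequences.

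The region with the highest lowest percentile over the 4 lists lay at the divergent starts of XPNPEP3, a mitochondrial aminopeptidase, and ST13, a co-chaperone of HSP70, at chr22:40856967-40857382. Its summits held 117 and 127 fragments in PPARα+ERα libraries 1 and 2 and 170 and 179 in PPARα+ERβ libraries 1 and 2. It stood at percentile 99.98 or above in each list without being the strongest peak of any, on a local background 28.5 to 30.8 times the genome-wide level. EIF2S3, the gamma subunit of the initiation factor that brings initiator tRNA to the ribosome, had a region at chrX:24054533-24055004 with 35, 58, 98 and 121 fragments in the same order of libraries. In PPARα+ERβ library 2 its −log10 q of 103.7 was above the 94.8 of XPNPEP3, and in the other libraries it was below. The 4 summits of EIF2S3 fell within 2 bp of each other, 254 to 256 bp from the GC box of the window printed above. GADD45GIP1, a mitochondrial ribosome protein, had a region at chr19:12957187-12957580 with 60, 56, 53 and 75 fragments at percentiles 99.9, 98.6, 94.1 and 95.8. Its nearest PPARα peak, outside the merged region, was 378 bp away. NDUFA10, a subunit of respiratory complex I, held 22, 21, 46 and 51 fragments at chr2:240025452-240025960. It ranked at percentiles 79.3 and 66.7 with ERα and 98.5 and 96.2 with ERβ.

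FST encodes follistatin, which binds and blocks activin and is released by hepatocytes. The FST region at chr5:53481472-53481854 lay 843 bp from the nearest start and held 26, 31, 32 and 38 fragments. The percentiles were 96.1 and 98.5 with ERα and 74.1 and 79.0 with ERβ, and the summits fell at separate points for the receptors, spread over 138 bp. SEC23A, a coat protein of vesicles that leave the endoplasmic reticulum, held 13, 11, 21 and 29 fragments at chr14:39105962-39106833. Its summit fell on the same base in 3 libraries and 576 bp away in PPARα+ERα library 2.

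The rest of the 15 regions that lay near a protein-coding gene end and had a peak in all 4 libraries belonged to genes of varied function. SENP7, a SUMO protease, held 19, 23, 18 and 29 fragments at chr3:101513230-101513581, with 1 shared summit base. NFX1, a zinc finger regulator of transcription, held 28, 17, 14 and 18 fragments at chr9:33290009-33290725, with the highest count in PPARα+ERα library 1. ZNF362 held 8, 16, 9 and 11 fragments at the genome-wide background in each library. ZC3H6 held 24, 29, 23 and 39, with its summits within 2 bp. EXOSC6, a subunit of the RNA exosome that lies beside the alanyl-tRNA synthetase gene AARS1, held 8, 10, 13 and 14. ZCCHC7, PPM1H and C2orf81 held between 9 and 27 fragments per library.

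A region 13 bp from RPPH1, the RNA subunit of RNase P, and 577 bp from PARP2, a DNA repair polymerase, had ranks that did not overlap between the receptors. It held 30, 24, 15 and 23 fragments at chr14:20342024-20343058, and its percentiles were 93.0 and 66.1 with ERα but 3.2 and 0.7 with ERβ. Among the 15 regions, the percentiles of GADD45GIP1, FST, SENP7, NFX1, ZNF362 and PPM1H were also higher with ERα, without overlap. Those of EIF2S3 and NDUFA10 were higher with ERβ, without overlap. How many of all 95 regions show such a gap was not counted, and with 2 libraries per receptor it was not tested. Over all 1688 regions the median percentiles were also higher in the ERα libraries, 49.2 and 53.7 against 31.1 and 30.2 with ERβ. Percentiles depend on each list's own peaks, so their gap is a difference in rank and not in binding.

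**Figure D1:**
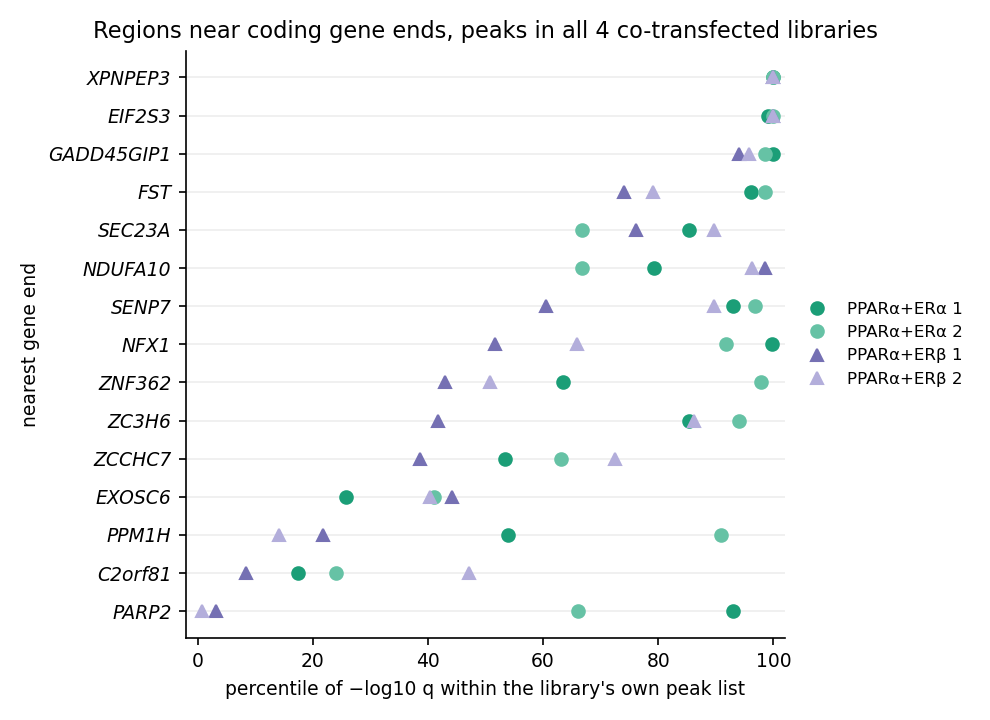
Percentile of −log10 q within each library's own peak list (x axis, 0 to 100) for the 15 regions that lie within 3 kb of a protein-coding gene end and have a peak in all 4 co-transfected libraries, with 1 point per library. XPNPEP3 sits at 99.98 or above in every list, and the region near PARP2 and RPPH1 ranges from 0.7 to 93.0.

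In all, 207 of 19974 protein-coding genes had a region within 3 kb of an end (1.04%), and 18 had one found in all 4 co-transfected libraries (0.0901%). Regions in 3 libraries added NOP58, a ribosomal RNA modification factor, with 21, 22 and 39 fragments in both PPARα+ERα libraries and PPARα+ERβ library 2. They also added SUPV3L1, a mitochondrial RNA helicase, with 30, 44 and 55 fragments in PPARα+ERα library 1 and both PPARα+ERβ libraries. ATF1, a transcription factor that binds CRE sequences, had 26, 36 and 53 fragments in PPARα+ERα library 2 and both PPARα+ERβ libraries, all with the same summit base. GTF3C3, part of the RNA polymerase III factor TFIIIC, had 34, 52 and 72 in PPARα+ERα library 1 and both PPARα+ERβ libraries, on a background 15.8 to 16.7 times the genome-wide level. PTGES3, the HSP90 co-chaperone p23 that acts on steroid receptors, had 24, 33 and 45 in those same libraries. PRMT9, an arginine methyltransferase, had 14, 19 and 17 there, and the region shared by GATC and TRIAP1 had 19, 15 and 19 in both PPARα+ERα libraries and PPARα+ERβ library 1. Regions in 1 library of each receptor, the weakest evidence allowed by the rule, were led by PLXNA4, TRPM2, NCR3LG1, PSMA6, CIAO1 with TMEM127, and ST6GAL1, at 13 to 29 fragments. CTDSP1, a phosphatase of RNA polymerase II, had separate regions near both of its ends, with 10 and 11 fragments at one and 16, 9 and 21 at the other.

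Few genes of the lists for PPARα and estrogen biology had a region near an end. Of 30 fatty acid oxidation genes, 0 had a region within 3 kb of an end, where all protein-coding genes gave 1.04%. Of 34 genes of PPARα-controlled lipid handling, 1 had one, PDK4, the kinase that shuts off pyruvate dehydrogenase in fasting. The PDK4 region was among the lowest ranked, with 7 fragments in PPARα+ERα library 2 and 8 in PPARα+ERβ library 2 at percentiles 11.0 and 3.0. The estrogen response list had 0 of 37, nuclear receptors 0 of 48, coactivators and corepressors 0 of 33, and hepatocyte plasma proteins 0 of 42. Mitochondrial ribosome genes had 2 of 82, GADD45GIP1 and MRPS35, and MRPS35 held 13 fragments in the first library of each receptor. Activin, BMP and TGF-beta signalling had 1 of 42 (FST), translation initiation 1 of 42 (EIF2S3) and cGMP signalling 1 of 36 (PDE1A). PDE1A, a cyclic nucleotide phosphodiesterase, shared a region with the start of DNAJC10 that held 17, 31 and 30 fragments in all but PPARα+ERα library 1. Beside 1.04% of all protein-coding genes, counts of 0 to 2 in lists of 30 to 82 genes are near the background.

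Counted over whole gene spans, 909 of 19974 protein-coding genes held a region or had one within 3 kb (4.55%). Of the 48 nuclear receptors, 7 did (14.6%), among them long genes, and the span count does not correct for length. ESR1, which encodes ERα, carried a region at chr6:151670417-151670777 in all 4 libraries, 13745 bp from its nearest start. The ESR1 region held 11, 12, 20 and 19 fragments, and all 4 summits fell on the same base. NR1H4, the bile acid receptor FXR, held 14, 10 and 8 fragments, and RORA, a clock-linked receptor, 12, 11 and 7, both in the 2 PPARα+ERα libraries and PPARα+ERβ library 2. NR6A1 held 18, 16 and 13 in PPARα+ERα library 1 and both PPARα+ERβ libraries. RARB had 2 regions with 5 to 8 fragments per peak, and THRB and NR2C1 had 1 each, in 1 library of each receptor. PPARA and ESR2 had none. Among PPARα lipid genes, SCD, which desaturates fatty acids, held 10, 9 and 10 fragments, and ACSL3, a fatty acyl-CoA ligase, 18 and 16. EHHADH, the peroxisomal bifunctional enzyme of fatty acid oxidation and a known PPARα target, held 6 and 7 fragments with the same summit base. The coactivators NCOA3 and MED1 each had a region in 1 library of each receptor, at 20 and 21 and at 8 and 14 fragments.

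BMP6, a liver signal that sets hepcidin and so iron uptake, had 2 regions 7403 bp apart. The first, in all 4 libraries, held 10, 14, 8 and 11 fragments, and the second held 11 and 15 in the second library of each receptor. Over the genome 6 pairs of regions lay within 10 kb of each other. Most genes with several regions were very long, such as MACROD2 with 4 regions in 2057.7 kb and EYS with 3 in 1987.2 kb. PHLPP2, a phosphatase of AKT, had 3 regions in 79.8 kb and was chosen after its values were seen. Those of PHLPP2 held 11 and 12, 5, 13 and 20, and 19 and 17 fragments, in 2, 3 and 2 libraries.

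Most regions lay far from promoters, and so did the other peaks of the same libraries. Of those, 1.96% to 2.08% per library had a summit within 1 kb of a start. The shares by place given next are of these regions alone. Of the 1688, 691 (40.9%) were inside a protein-coding gene and over 3 kb from any gene end, 157 (9.30%) were inside another gene, 505 (29.9%) were outside genes, and 319 (18.9%) were within 3 kb of a gene end without touching a promoter window. In 344 (20.4%) the nearest protein-coding gene was over 100 kb away. Of the 95 regions in all 4 libraries, 6 (6.32%) touched a promoter window, against 2 of 992 (0.202%) found in 2 libraries and 8 of 601 (1.33%) found in 3. In all these shares, regions on chromosome 8, where no window could be scored, count as not touching one. Regions in all 4 libraries also stood over 3 kb from any gene. One at chr4:4251993-4252530, 3770 bp from TMEM128, held 8, 12, 22 and 20 fragments at the genome-wide background. One at chr2:145511982-145512341 lay 88580 bp from any gene and 991863 bp from ZEB2, its nearest protein-coding gene, and held 13, 15, 12 and 16 with 1 shared summit base. Chromosome 2 carried 205 of the regions (12.1%), 18 of them in all 4 libraries, and 10.9% of all co-transfected regions, and X carried 17 (1.01%) and 2.05%.

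In each library a larger share of these regions' summits than of the other summits lay near a gene start. Within 1 kb of an annotated start were 3.57% and 3.4% of their summits in PPARα+ERα libraries 1 and 2 and 3.63% and 3.46% in PPARα+ERβ libraries 1 and 2. The other peaks of the same libraries gave 1.98%, 1.97%, 2.08% and 1.96%, so the sets did not overlap. The means were 3.52% ± 0.105 and 2.00% ± 0.0556 (SD, n = 4 libraries), a difference of 1.52 percentage points, higher in 4 of 4 libraries. An exact two-sided permutation test that flips the sign of each library's difference gave p = 0.13, which is 2 of the 16 sign patterns and the smallest that 4 libraries allow, and 0.1705 after Benjamini-Hochberg adjustment over 30 comparisons of this kind. The libraries share regions by the rule and so are not independent, and the 1 kb distance was chosen after seeing the data. The share was 2.10% in peaks of 1 receptor only and 2.19% in peaks shared with PPARα. By number of libraries, 16 of 940 regions found in 2 libraries (1.70%), 25 of 582 found in 3 (4.30%) and 9 of 91 found in all 4 (9.89%) had a summit within 1 kb, on the 22 chromosomes with start positions.

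The difference was larger among peaks on a raised local background, although the gap between the groups of peaks was not itself tested. The local background is the level the authors' peak caller set a summit against, expressed here as a multiple of the library's genome-wide level, the 0.1 percentile of its backgrounds. Where it was over 3 times that level, 7.16% ± 0.755 of summits lay within 1 kb of a start against 2.37% ± 0.252 of the other peaks, a difference of 4.79 points, higher in 4 of 4 libraries (exact permutation p = 0.13). Where it was up to 3 times, the shares were 1.76% ± 0.316 and 1.65% ± 0.155, a difference of 0.106 points, higher in 2 of 4 libraries (exact permutation p = 0.875). For regions in all 4 libraries, the share over 3 times was 32.1% and 32.1% with ERα and 23.3% and 25.8% with ERβ. Those values rest on 28 to 31 peaks per library. Up to 3 times, it was 0% and 0% with ERα and 1.64% and 1.67% with ERβ. For summits at most 3 kb from a gene end, the share was 18.7% ± 0.888 against 17.8% ± 0.485, which was higher in 3 of 4 libraries and did not pass an exact permutation test (p = 0.25). That difference, 0.898 points, was 3.13 with lists of equal length and 1.75 for protein-coding genes alone, each higher in 4 of 4 libraries, and 0.298 at a −log10 q of at least 3. It was reversed, at -1.39 points, over peaks with a background up to 3 times, and 4.9 points over those above. The split at 3 times was not planned in advance, and the background is part of the peak calls that the rule used. What part the background plays was not tested.

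**Figure D2:**
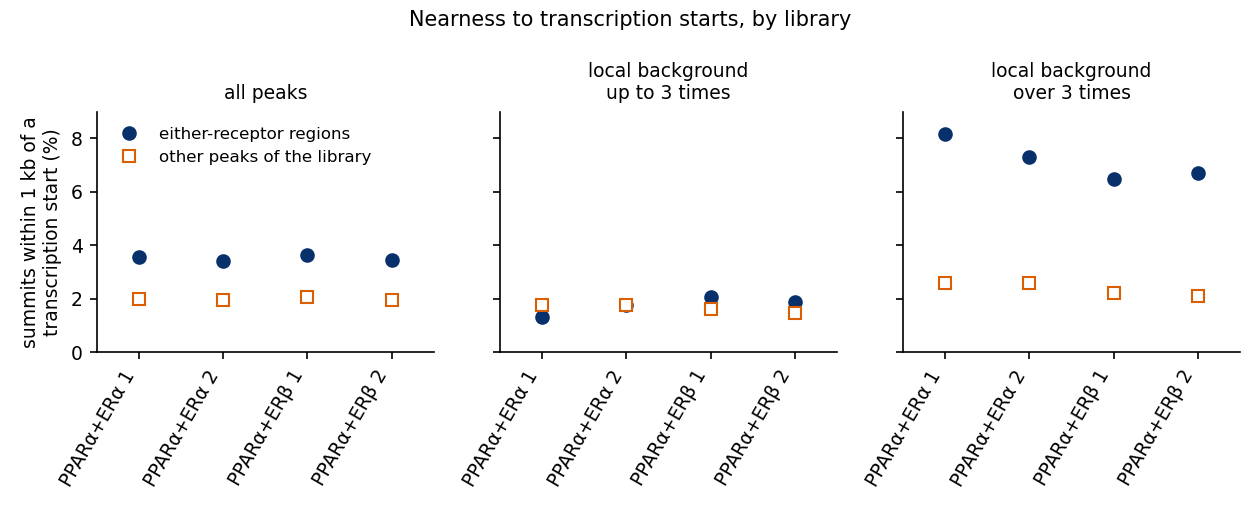
Percent of peak summits within 1 kb of a transcription start (y axis) in each co-transfected library, for the regions with either receptor (filled circles) and all other peaks of the library (open squares), over all peaks and split by local background. In the right panel the circles, with a mean of 7.16%, lie above the squares in every library, and in the middle panel the sets overlap.

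The peaks of these regions were of middling to low rank. In PPARα+ERα libraries 1 and 2 their median percentiles were 49.2 and 53.7, and in PPARα+ERβ libraries 1 and 2 they were 31.1 and 30.2. Their median number of fragments was 10, 11, 12 and 12 in that order, where the whole lists gave 9, 10, 27 and 29. Median percentiles were higher the more libraries a region was found in, from 40.9 through 59.1 to 63.5 in PPARα+ERα library 1 and from 24.4 through 33.3 to 45.0 in PPARα+ERβ library 2 for 2, 3 and 4 libraries. The number of libraries rests on the same peak calls that the percentiles rank, so this rise is a description and was not tested. The weakest peak of any of these regions had a −log10 q of 1.527. Just outside the rule stood 728 regions with both receptors and a peak in only 1 PPARα library, the weakest of those at a −log10 q of 1.546, and 818 regions with a peak in both. Of 3234 regions with both receptors, the 1688 without a PPARα peak were 52.2%. Regions with all 4 co-transfected libraries numbered 89 with a peak in 1 PPARα library and 123 with a peak in both. A PPARα peak lay within 1 kb of 28 of the 1688 regions, and the closest was 317 bp away.

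In the PPARα+ERβ libraries these regions sat on a lower local background than other peaks. Their median background was 2.47 and 2.44 times the genome-wide level, where peaks of ERβ libraries with neither ERα nor PPARα gave 8.56 and 6.09 and peaks shared with PPARα gave 11.1 and 9.74. In the PPARα+ERα libraries the medians were 2.57 and 2.57, against 1.57 and 1.57 for peaks with neither ERβ nor PPARα and 2.57 and 2.57 for peaks shared with PPARα. In PPARα libraries 1 and 2, whose lists define absence here, the median background of all peaks was 13.5 and 15.7 times. In those lists 84.0% and 87.2% of peaks were over 3 times. Membership depends on peaks being called in libraries of both co-transfected kinds and not in the PPARα libraries, so these values are a description. At the same region the background was close between libraries. Once the median ratio between a pair of libraries was removed, it agreed within 10% in 89.3% of 469 regions between the PPARα+ERα libraries, in 85.7% of 322 between the PPARα+ERβ libraries, and in 76.2% to 77.2% between a library of each. The control the authors used is not given in the sources used here.

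**Figure D3:**
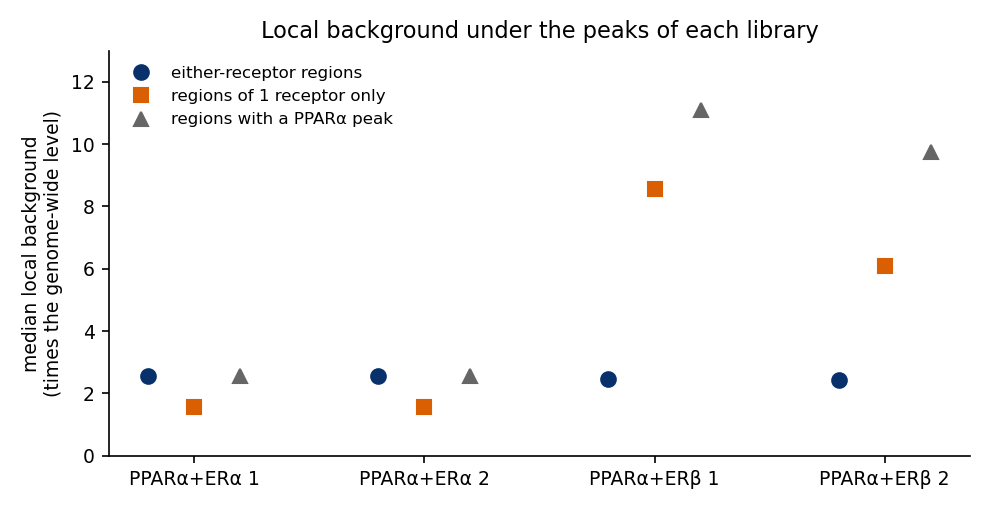
Median local background, as a multiple of the library's genome-wide level (y axis), under 3 kinds of peak in each co-transfected library. The regions with either receptor lie between 2.44 and 2.57 in all 4 libraries, while the peaks of 1 receptor only and those with a PPARα peak are at 6.09 to 11.1 in the PPARα+ERβ libraries.

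The closest pair of ERα and ERβ summits fell on the same base in 530 of 1688 regions (31.4%), within 50 bp in 1364 (80.8%) and over 100 bp apart in 163 (9.66%), with a median of 4 bp. In 1313 regions (77.8%) at least 2 libraries also shared an identical peak start or end, as did 92 of the 95 regions in all 4 libraries. Chances of a shared edge rise with the number of libraries, so single-receptor regions are best set beside the 992 regions found in 2 libraries. Of those 992, 66.5% shared an edge. The share was 76.6% in regions found in both PPARα+ERα libraries only and 83.4% in those found in both PPARα+ERβ libraries only. All summits of a region fell on 1 base in 27.4% of the 1688 regions, with a median spread of 7 bp, against 43.7% and 30.2% of those single-receptor regions, with a median of 2 bp in each. In the 992 regions found in 2 libraries these values were 29.5% and 5 bp. What part shared peak edges play in the coinciding summits was not tested. The regions had a median width of 380 bp, from 314 to 1285 bp.

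**Figure D4:**
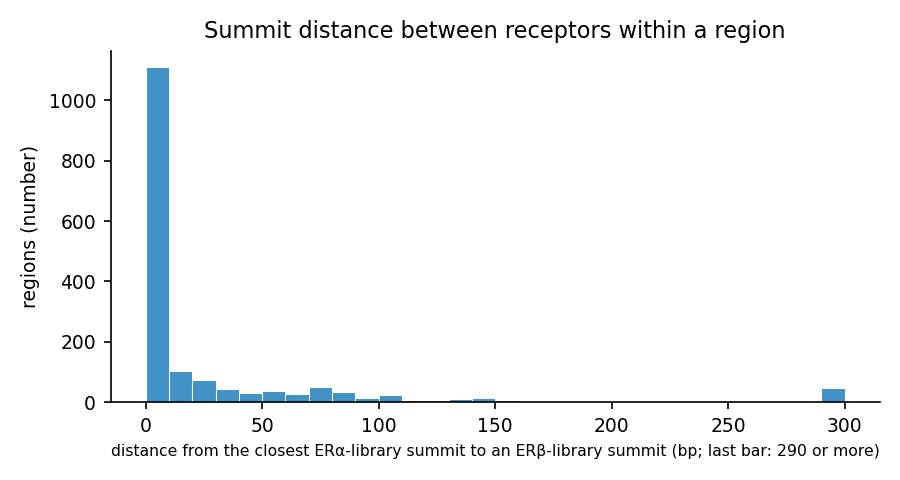
Number of regions (y axis) by the distance in bp between the closest PPARα+ERα and PPARα+ERβ summits within a region (x axis, 10 bp bars, the last holding all larger distances). Most regions stand in the first bar, and the median distance is 4 bp.

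Most regions rested on few libraries. In 992 (58.8%) there was 1 library of each receptor, in 601 (35.6%) there were 3 libraries, and in 95 (5.63%) all 4. Pairs with PPARα+ERβ library 2 were most frequent, 323 with PPARα+ERα library 2 and 279 with PPARα+ERα library 1, against 191 and 199 for pairs with PPARα+ERβ library 1. The lists differ in length, from 17457 peaks in PPARα+ERβ library 1 to 36302 in PPARα library 2, and in estimated depth, from 1 fragment per 449.8 bp to 1 per 779.7 bp. The peaks of these regions made up 4.29% and 4.02% of the lists with ERα and 4.97% and 4.90% of those with ERβ.

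**Figure D5:**
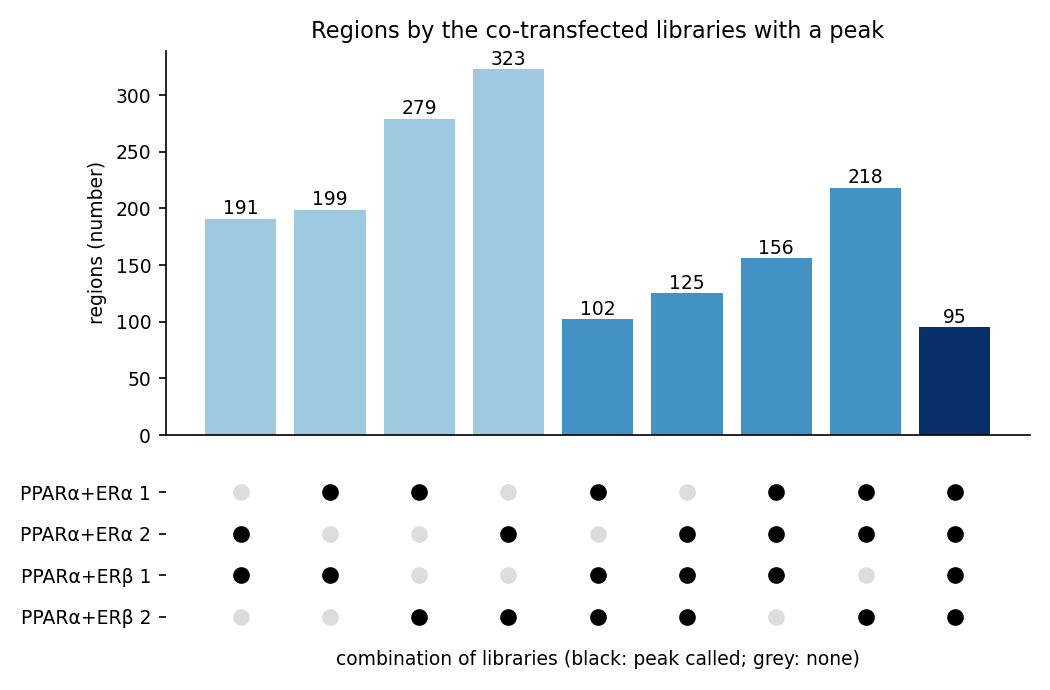
Number of regions (y axis) for each combination of co-transfected libraries with a peak, shown by black dots under the bars, with light bars for 2, mid-blue for 3 and dark for all 4 libraries. The pair of second libraries holds 323 regions, and the full set of 4 holds 95.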

How the data were processed

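Human HepG2 cells gave 7 samples, of which 6 have a peak list, 2 in each of 3 groups. Libraries 1 and 2 follow the order of deposit. Tools listed in the submitters' processing notes, without their roles, are MACS2 2.2.7.1 and Bowtie 1.0.1 beside DiffBind 2.16, HOMER 4.11, Trim Galore 0.6.4 and ChIPseeker 1.18.0, on hg38 or GRCh38.p13. The deposited lists hold 1 peak per line, called per library. The authors' score is a whole-number form of the −log10 q. The authors' fold is a ratio of the summit over the local background used in calling that list, and folds were not compared between lists. Whether that background came from the library itself or from a control is not given. The deposited −log10 p and −log10 q belong to the summit.

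The fragments stacked at a summit, and the background level around it, were worked back from the fold and −log10 p of the deposited lists. The fold was read as fragments plus 1 over background plus 1, and p as a Poisson tail. For 100% of peaks a whole fragment number gave the −log10 p to within 0.001. The genome-wide level is the 0.1 percentile of a list's backgrounds. The bases per fragment come from that level and the shortest peak, and are an estimate of depth. Peaks of few fragments are less precise.

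Peaks were merged at 1 bp of overlap. Near means within 3 kb of an end of a gene span in the RefSeq table of GRCh38.p14, which has no strand or exons. Starts and the 34961 promoter windows came from RefSeq promoter sequences, which cover 22 chromosomes and 1613 of the regions. All 18 windows under regions matched by position. The 15 motifs were searched as letters on both strands. Of 450 list entries in 11 lists, 449 matched, 2 of them through an older symbol, and the result of 1 list is not reported here. Library shares were compared by an exact sign-flip permutation test, with Benjamini-Hochberg adjustment. Scripts ran in Python 3.11.15 with SciPy 1.17.1, NumPy 2.4.6 and pandas 2.3.3, figures were drawn with Matplotlib 3.10.9, and the steps were tested on simulated data.

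The regions, the lists, the motifs and the tests were chosen with earlier results of these data known. Named genes are the highest ranked near gene ends by their lowest percentile among regions in 4, 3 and 2 libraries, the highest ranked away from genes, the list members near ends, PPARA, ESR1, ESR2, XPNPEP3, EIF2S3, GADD45GIP1 and FST, and genes with several regions. List members found by their span alone, MAS1L, SUPT5H, BMP6 and PHLPP2 were added after their values were seen. Alternatives covered each library left out, overlap, summits, a stricter q, equal list lengths, distances and background.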

Additional observations from a re-analysis of the deposited data

How the results depend on the processing

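The counts depend on which libraries are required. Leaving out 1 library at a time gave 868 to 2138 regions in place of 1688, 126 to 313 regions in every remaining co-transfected library in place of 95, and 117 to 260 genes in place of 207. Regions numbered 1107 without PPARα+ERα library 1, 1048 without library 2 and 868 without PPARα+ERβ library 2. Regions in every remaining co-transfected library numbered 153 without PPARα library 1, 220 and 197 without PPARα+ERα libraries 1 and 2, and 313 and 251 without PPARα+ERβ libraries 1 and 2, since fewer libraries are then required or can exclude a region. Genes near a region numbered 131 without PPARα+ERα library 2 and 117 without PPARα+ERβ library 2, and 95 at 1 kb and 566 at 10 kb from a gene end. With only peaks whose background was up to 3 times the genome-wide level, 1110 regions and 62 in all 4 libraries were left, and the excess near gene ends was reversed, at -1.385 points (exact permutation p = 0.25). Over all peaks that excess, 0.8981 points, was 0.2978 at a −log10 q of at least 3, 3.126 with lists of equal length, 1.745 for protein-coding genes, 1.523 at 10 kb and 4.9 above 3 times the background. With 1 library left out it ranged from 0.2215 without PPARα+ERβ library 1 to 2.106 without PPARα+ERβ library 2, and was 0.4218 and 1.487 without PPARα libraries 1 and 2 and 0.4597 without PPARα+ERα library 2. The excess within 1 kb of a start ranged from 1.386 to 2.062 points with 1 library left out. Over whole spans the lists had 1 fatty acid oxidation gene in place of 0, 3 PPARα lipid genes for 1, 1 estrogen response gene for 0, 7 nuclear receptors for 0, 2 coregulators for 0, 4 activin, BMP and TGF-beta genes for 1, 2 translation initiation genes for 1 and 3 cGMP genes for 1. Mitochondrial ribosome and plasma protein counts stayed at 2 and 0. Over regions in all 4 libraries the median background was 2.52 and 2.43 in the PPARα+ERα libraries in place of 2.57 in each. An overlap of 50 bp, summits within 200 bp, a −log10 q of at least 3 and lists of equal length gave 1682, 1633, 1262 and 1192 regions, and 95, 89, 76 and 76 in all 4 libraries. No paired analysis was possible because the labels give no replicate numbers that the groups share. A region with no PPARα peak may hold PPARα signal under the calling threshold, which peak lists cannot show at this depth.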
